A study of Mus musculus with 6 samples.

Results

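Kinesins are motor proteins that use ATP to move along microtubules or to take them apart at their ends. Dividing cells use one set of them to build the spindle, align and separate chromosomes and complete cytokinesis. Neurons no longer divide and use another set to carry vesicles, mitochondria, RNA and receptors along axons and dendrites. The family was defined here as every gene whose symbol is Kif followed by digits and at most 1 of the letters a, b or c. This rule found 37 of the 20367 genes measured, and it used no expression value. Kinesins with other symbols, such as Cenpe and the Kifc genes, fell outside it. By their known main roles, 12 members were treated as mitotic, 15 as cargo transport motors, 5 as motors of cilia and their signalling, and 5 as other.

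RNA was sequenced from cells of the embryonic cortex of C57BL/6J mice at embryonic days 13.5, 15.5 and 16.5 (E13.5, E15.5, E16.5). The embryos came from crosses of heterozygous Tbr2(Eomes)-GFP mice with homozygous DCX-mRFP mice, and only embryos with both reporters were used, so every library carries both transgenes. Eomes is a transcription factor of intermediate progenitors, the dividing cells that produce many cortical projection neurons, and DCX is a microtubule protein of young neurons. Cells with both colours were sorted as neurons derived from intermediate progenitors (IPN), and cells with red colour alone as neurons of other origin (non-IPN), so lineage here rests on GFP still present in the cell. There was 1 library of each population at each age. The E15.5 libraries came from 1000000 cells each, and those of E13.5 and E16.5 came from 10000 cells each after amplification of the transcriptome. Between E15.5 and the other ages, the effects of age, cell number and amplification cannot be told apart.

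Levels are given in CPM, which is each deposited value divided by the sum of its column and multiplied by 1000000. The column totals lay between 12583033 and 32522834 and are scaled values, so the true read depth is unknown. Between 7655 and 9692 genes per library reached 10 CPM, and log2 values correlated between libraries at 0.826 to 0.962. Young neuron markers were present in all 6 libraries, at summed levels of 4915.1, 9253.5 and 7473.8 CPM in IPN in the order of the ages, against 2422.5, 10229.1 and 8524.7 in non-IPN. All 7 interneuron markers were lower in IPN, where they summed to between 17.5 and 57.6 CPM, with Dlx5 at 0 at E13.5 and Slc32a1 at E16.5, against 1072.9 to 4166.3 in non-IPN. All 12 microglia markers were also lower in IPN (2.2 to 6.3 CPM in sum, with C1qa at 0 at E13.5 and, beside Aif1, C1qc, Fcer1g and Trem2, at E16.5), against 494.0 to 978.4 in non-IPN. Red blood cell markers reached 49261.4 CPM in non-IPN at E13.5 and at most 276.6 in any other library. Because each library is a bulk sample, fewer cells of a type and less RNA per cell cannot be told apart.

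Of the 37 kinesins, 35 were above 0 in all 6 libraries and 24 averaged at least 10 CPM. The exceptions at the bottom were Kif2b, a microtubule depolymerase of the spindle that never exceeded 0.24 CPM, and Kif12, which never exceeded 0.40. Levels of different genes were compared per kilobase of merged exon. On that scale Kif5c, a neuronal heavy chain of conventional kinesin, had the highest value of the family in IPN at E13.5 and E16.5 (97.7 and 147.0 CPM per kilobase) and in non-IPN at E15.5 (106.3). Kif21b, a motor of neuronal processes, led in IPN at E15.5 with 127.2, beside 124.0 for Kif5c. Kif21a, its close relative, led in non-IPN at E13.5 with 76.3. Kif2a, a depolymerase that also limits the growth of axon branches, led in non-IPN at E16.5 with 129.8. No mitotic kinesin led any library.

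**Figure D1:**
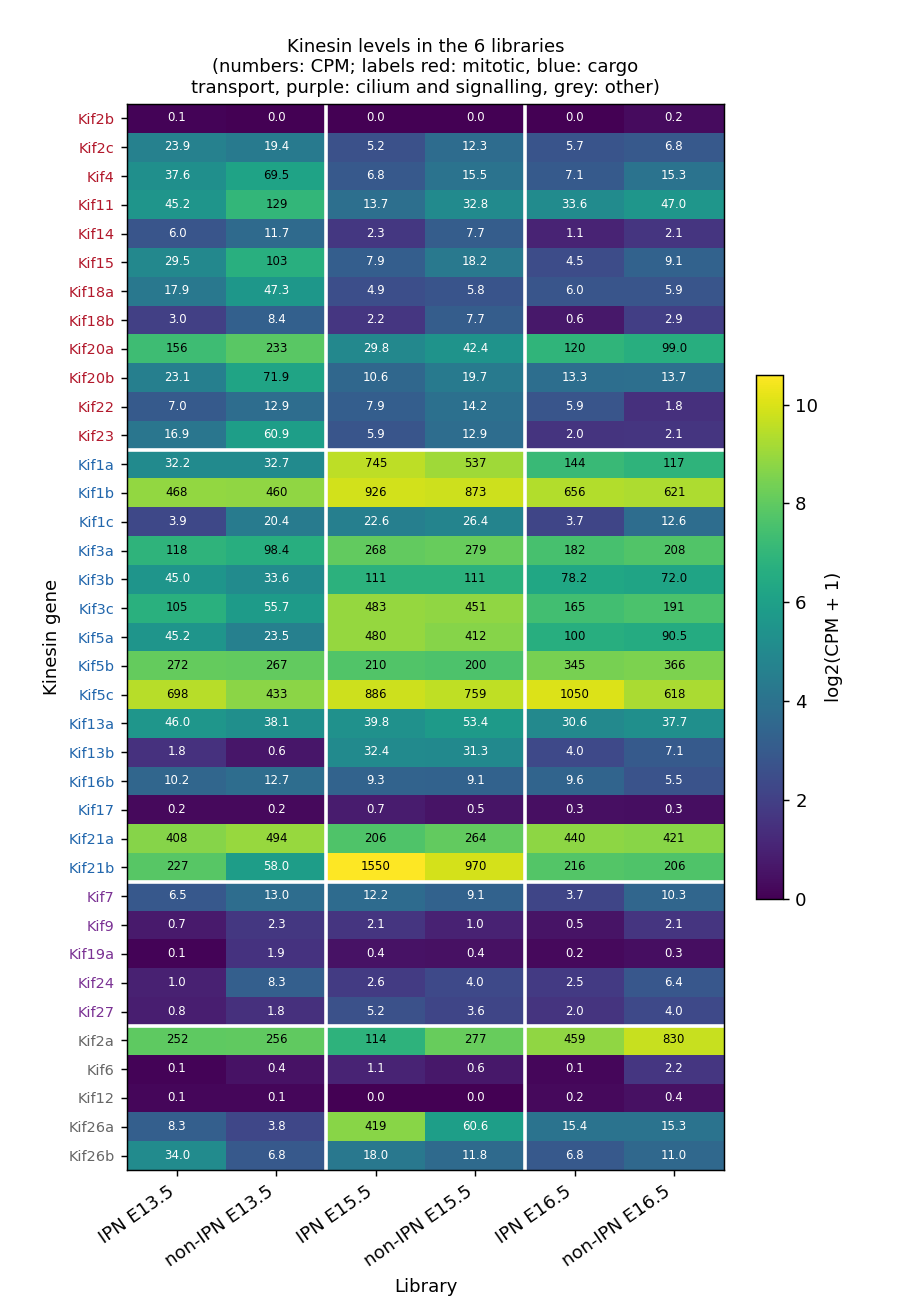
Level of each of the 37 kinesins (rows, grouped by role) in each of the 6 libraries (columns, IPN left of non-IPN at each age). Numbers are CPM and colours are log2(CPM + 1). Most mitotic kinesins are highest in non-IPN at E13.5, while Kif1a, Kif3c, Kif5a, Kif13b, Kif21b and Kif26a are highest in the E15.5 libraries.

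The promoters of several kinesins described below are shown because cell cycle genes often share short elements close to their start. Known examples are the CCAAT box, the cell cycle homology region TTTGAA or TTCGAA, and the E2F-type site TTTGGCGC. RefSeq windows of build GRCm38.p6, which run from 250 bases before to 50 bases after the transcription start, were found for 31 of the 37 members. None was found for the mitotic Kif20a, the transport motors Kif13b, Kif21b, Kif5a and Kif5b, or Kif19a of the cilium group. The mitotic kinesins that fell with age come first, then Kif11, and last Kif1a, the transport motor with the smallest adjusted p for a rise with age. The sequences are read 5′ to 3′ on the strand of the gene, and capitals mark every match to the 4 motifs on either strand.
Kif15, chr9:122950831-122951130, plus strand: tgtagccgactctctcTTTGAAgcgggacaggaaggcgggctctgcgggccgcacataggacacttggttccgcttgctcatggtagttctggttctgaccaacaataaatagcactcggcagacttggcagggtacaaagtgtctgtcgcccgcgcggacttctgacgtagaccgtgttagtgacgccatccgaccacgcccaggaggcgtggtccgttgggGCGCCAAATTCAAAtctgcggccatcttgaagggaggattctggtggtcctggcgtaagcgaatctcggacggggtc
Kif4, chrX:100625815-100626114, plus strand: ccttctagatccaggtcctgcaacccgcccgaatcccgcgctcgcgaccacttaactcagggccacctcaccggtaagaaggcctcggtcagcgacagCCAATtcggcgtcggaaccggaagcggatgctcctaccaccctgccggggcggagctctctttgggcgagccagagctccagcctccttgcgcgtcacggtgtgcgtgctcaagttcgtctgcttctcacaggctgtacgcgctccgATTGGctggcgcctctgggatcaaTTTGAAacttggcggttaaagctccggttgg
Kif23, chr9:61946750-61947049, minus strand: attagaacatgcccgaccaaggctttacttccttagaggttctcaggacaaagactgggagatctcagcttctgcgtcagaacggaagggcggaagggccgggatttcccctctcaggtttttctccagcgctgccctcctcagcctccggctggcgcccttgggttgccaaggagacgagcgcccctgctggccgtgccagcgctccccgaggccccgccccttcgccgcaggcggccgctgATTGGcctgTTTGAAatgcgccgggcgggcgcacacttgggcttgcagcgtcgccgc
Kif18a, chr2:109280488-109280787, plus strand: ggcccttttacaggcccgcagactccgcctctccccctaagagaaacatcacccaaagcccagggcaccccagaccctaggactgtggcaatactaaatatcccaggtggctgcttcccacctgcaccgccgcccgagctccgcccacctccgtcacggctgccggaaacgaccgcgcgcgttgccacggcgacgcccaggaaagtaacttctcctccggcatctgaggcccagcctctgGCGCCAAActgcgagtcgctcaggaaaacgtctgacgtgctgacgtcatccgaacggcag
Kif11, chr19:37376132-37376431, plus strand: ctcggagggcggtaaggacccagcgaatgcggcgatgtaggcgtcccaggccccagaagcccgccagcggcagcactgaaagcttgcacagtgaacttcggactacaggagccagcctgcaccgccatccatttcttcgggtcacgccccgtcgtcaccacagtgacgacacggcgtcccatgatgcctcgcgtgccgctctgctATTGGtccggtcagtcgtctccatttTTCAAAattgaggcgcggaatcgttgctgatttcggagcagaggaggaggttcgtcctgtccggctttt
Kif1a, chr1:93101825-93102124, minus strand: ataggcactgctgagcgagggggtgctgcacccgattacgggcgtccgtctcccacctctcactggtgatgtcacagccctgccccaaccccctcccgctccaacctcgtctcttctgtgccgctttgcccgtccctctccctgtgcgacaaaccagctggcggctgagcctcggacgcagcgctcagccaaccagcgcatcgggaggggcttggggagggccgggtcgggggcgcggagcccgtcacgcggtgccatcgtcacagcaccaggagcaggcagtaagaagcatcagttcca
The motif TTTGAA was found in 9 of the 11 mitotic kinesins with a window (81.8%), in 1 of the 11 transport kinesins (9.09%) and in 20.2% of the 27025 genes in the promoter table. The match among the transport motors lies in a second window of Kif1a, not in the one shown. CCAAT was found in 7 of 11 mitotic and 3 of 11 transport kinesins, against 41.1% of all genes. Both CCAAT and TTTGAA or TTCGAA stood in the windows of 6 of 11 mitotic kinesins (54.5%), 0 of 11 transport kinesins and 8.61% of all genes. TTTGGCGC was found in Kif15 and Kif18a alone among the members, and in 0.585% of all genes. In Kif15 the match to TTTGGCGC and the nearer match to TTTGAA directly adjoin, and Kif18a has no match to the other 3 motifs. These are matches of letters in a window and not shown sites of binding.

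The summed level of the mitotic kinesins was lower in IPN than in non-IPN at E13.5 and E15.5, but no single gene passed the test. It was 366.7 CPM in IPN against 767.2 in non-IPN at E13.5, 97.3 against 189.2 at E15.5, and 199.9 against 205.8 at E16.5. The median log2 ratio of the 12 genes, IPN over non-IPN on deposited values, was -1.03, -1.10 and -0.16 at the 3 ages. In the fit over all 6 libraries, 11 of the 12 had a difference below 0, with a median of -0.79 on the log2(value + 1) scale, against -0.02 for all genes tested. At an adjusted p under 0.05 (limma with Benjamini-Hochberg adjustment over 19561 genes), 0 of the 12 were called, and 4 had an unadjusted p under 0.05 (33.3%). Of all genes tested, 3.39% were called in this comparison (0.982% higher in IPN and 2.41% lower), and 13.6% had an unadjusted p under 0.05.

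Kif11, the motor that pushes spindle poles apart, was at 45.24, 13.65 and 33.65 CPM in IPN, in the same order of ages, against 128.86, 32.76 and 47.05 in non-IPN. It was lower in IPN at every age, though the log2 ratio was -1.36 at E13.5 and -0.27 at E16.5. The fitted difference was -0.95 ± 0.30 (SE; limma, adjusted p = 0.152). Kif15, which helps Kif11 keep the spindle bipolar, was at 29.47, 7.93 and 4.45 CPM in IPN, against 103.33, 18.24 and 9.06 in non-IPN. It too was lower in IPN at every age, with a fitted difference of -1.20 ± 0.37 (adjusted p = 0.145). Kif4, a chromosome-bound motor that shapes the central spindle, was at 37.62, 6.83 and 7.11 CPM in IPN, against 69.51, 15.50 and 15.26 in non-IPN. Its log2 ratios of -0.74, -1.13 and -0.88 were the most even of these genes, and its fitted difference was -0.91 ± 0.35 (adjusted p = 0.263).

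Kif23 and Kif20a both act in cytokinesis. Kif23 was at 16.93, 5.90 and 2.05 CPM in IPN, against 60.85, 12.89 and 2.07 in non-IPN, and its fitted difference was -0.86 ± 0.52 (limma, adjusted p = 0.549), or -0.44 without the E13.5 pair. The populations were thus nearly equal for Kif23 at E16.5, where its level was low in both and where the log2 ratio of the deposited values was 0.20. Kif20a was at 156.41, 29.83 and 120.11 CPM in IPN, against 232.91, 42.39 and 99.02 in non-IPN, so IPN was the higher of the pair at E16.5. Its fitted difference was -0.13 ± 0.26 (adjusted p = 0.860). Kif20a made up 60.1% of the mitotic sum in IPN and 48.1% in non-IPN at E16.5. Without it, the sums at E16.5 were 79.8 CPM in IPN and 106.8 in non-IPN. The exons of Kif20a share 29.3% of their bases with Cdc23 on the opposite strand, and Cdc23 lay between 124.21 and 243.99 CPM in the 6 libraries. No strand-specific counting is stated, so reads of the shared part could be counted for either gene.

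Kif18a, which dampens chromosome movements at the spindle centre, was at 17.90, 4.89 and 6.02 CPM in IPN, against 47.27, 5.77 and 5.88 in non-IPN. Only the E13.5 pair differed by much, with a log2 ratio of -1.25, and the fitted difference was -0.40 ± 0.48 (limma, adjusted p = 0.794). The other mitotic members, Kif14, Kif18b, Kif20b, Kif22, Kif2b and Kif2c, had fitted differences between -1.65 ± 0.64 (Kif18b, adjusted p = 0.278) and 0.14 ± 0.63 (Kif22, adjusted p = 0.947). On deposited values 5 mitotic kinesins (Kif11, Kif14, Kif15, Kif18b and Kif4) were lower in IPN at all 3 ages. On CPM values 7 were, with Kif20b and Kif23 added, but on that scale the share of all genes was also larger, 20.8% against 15.2%.

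Cargo transport kinesins were on balance slightly higher in IPN, again without any call. Their summed level was 2481.7 CPM in IPN against 2027.4 in non-IPN at E13.5, 5971.0 against 4977.4 at E15.5, and 3424.6 against 2972.8 at E16.5. A large part of these gaps lay in Kif5c and Kif21b. With IPN named first, Kif5c at E16.5 was at 1049.62 CPM against 618.13, or 30.6% of the sum against 20.8%. Its share was 28.1% against 21.3% at E13.5 and 14.8% against 15.2% at E15.5. The share of Kif21b was 9.1% against 2.9%, 26.0% against 19.5% and 6.3% against 6.9% at the 3 ages. The transport sum was not recomputed without these genes. In the fit 12 of the 15 transport members had a difference above 0, with a median of 0.31. An unadjusted p under 0.05 was reached by 4 of the 15 (26.7%, against 13.6% of all genes), of which Kif5c, Kif21b and Kif5a were higher in IPN and Kif1c was lower. The ratio of the transport sum to the mitotic sum was 6.8 in IPN against 2.6 in non-IPN at E13.5, 61.4 against 26.3 at E15.5, and 17.1 against 14.4 at E16.5. The ratio was therefore higher in IPN within each pair, and the pairs were closest at E16.5. Like the transport sum, this ratio was not recomputed without Kif5c or Kif21b. Nor was it recomputed without Kif20a, which made up 60.1% of the mitotic sum in IPN and 48.1% in non-IPN at E16.5.

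Kif5c was at 697.98, 885.96 and 1049.62 CPM in IPN across the 3 ages, against 432.70, 759.00 and 618.13 in non-IPN. Every IPN library lay above its non-IPN partner, and the fitted difference of 0.70 ± 0.20 had the lowest adjusted p of the family for this comparison (limma, 0.114). Kif21b was at 226.87, 1550.05 and 216.13 CPM in IPN, against 57.99, 969.84 and 205.99 in non-IPN. The gap was wide at E13.5, with a log2 ratio of 2.11, and small at E16.5, with 0.29. Its fitted difference was 1.04 ± 0.31 (adjusted p = 0.123), and 0.51 ± 0.18 without the E13.5 pair. Kif5a, another neuronal heavy chain of conventional kinesin, was at 45.18, 480.37 and 100.20 CPM in IPN, against 23.53, 412.42 and 90.52 in non-IPN. It was higher in IPN at each age by a margin that was smaller after E13.5, with a fitted difference of 0.57 ± 0.24 (adjusted p = 0.322).

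Kif1a, which carries synaptic vesicle precursors, was at 32.19, 744.74 and 143.98 CPM in IPN, against 32.68, 536.94 and 116.74 in non-IPN. The E13.5 pair was nearly equal, and the fitted difference was 0.39 ± 0.21 (limma, adjusted p = 0.491). Kif3a, a subunit of heterotrimeric kinesin-II that works in axons and in cilia, was at 118.15, 268.33 and 181.59 CPM in IPN, against 98.40, 278.58 and 207.82 in non-IPN. Here the order of the populations changed between ages on the CPM scale, and the fitted difference was 0.14 ± 0.21 (adjusted p = 0.830). Kif1c, a carrier of dense-core vesicles and of Golgi traffic, had the lowest fitted difference of its group. It was at 3.94, 22.60 and 3.69 CPM in IPN, against 20.45, 26.38 and 12.64 in non-IPN, with a fitted difference of -1.31 ± 0.49 (adjusted p = 0.250).

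Kif13b, which moves membrane cargo and polarity proteins, was low outside E15.5, at 1.81, 32.44 and 4.04 CPM in IPN, against 0.57, 31.26 and 7.07 in non-IPN. Its fitted difference was 0.40 ± 0.61 (limma, adjusted p = 0.830). The other transport members were Kif13a, Kif16b, Kif17, Kif1b, Kif21a, Kif3b, Kif3c and Kif5b. Their fitted differences lay between -0.05 ± 0.20 (Kif21a, adjusted p = 0.936) and 0.41 ± 0.25 (Kif3c, adjusted p = 0.544). On deposited values 8 transport kinesins were higher in IPN at all 3 ages (Kif1a, Kif1b, Kif21b, Kif3b, Kif3c, Kif5a, Kif5b and Kif5c). On CPM values 4 of them were (Kif1b, Kif21b, Kif5a and Kif5c), and the share of all genes was smaller too, 9.64% against 14.2%.

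Over the whole family, 7 of 37 kinesins (18.9%) were lower in IPN at all 3 ages on deposited values, against 15.2% of all genes tested. In the other direction 9 of 37 (24.3%) were higher in IPN at all 3 ages, against 14.2% of all genes. On CPM values the balance turned round, with 10 lower (27.0%, against 20.8% of all genes) and 5 higher (13.5%, against 9.64%). Outside the mitotic and transport roles, Kif24 was lower and Kif26a higher on both scales, and Kif2a was lower on CPM values. In all, 0 of 37 members passed the adjusted threshold, against 3.39% of all genes. An unadjusted p under 0.05 was reached by 10 members (27.0%), against 13.6% of all genes. The same fit without the E16.5 pair called 1 of 37 members, Kif26a, described below, against 3.16% of all genes.

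**Figure D2:**
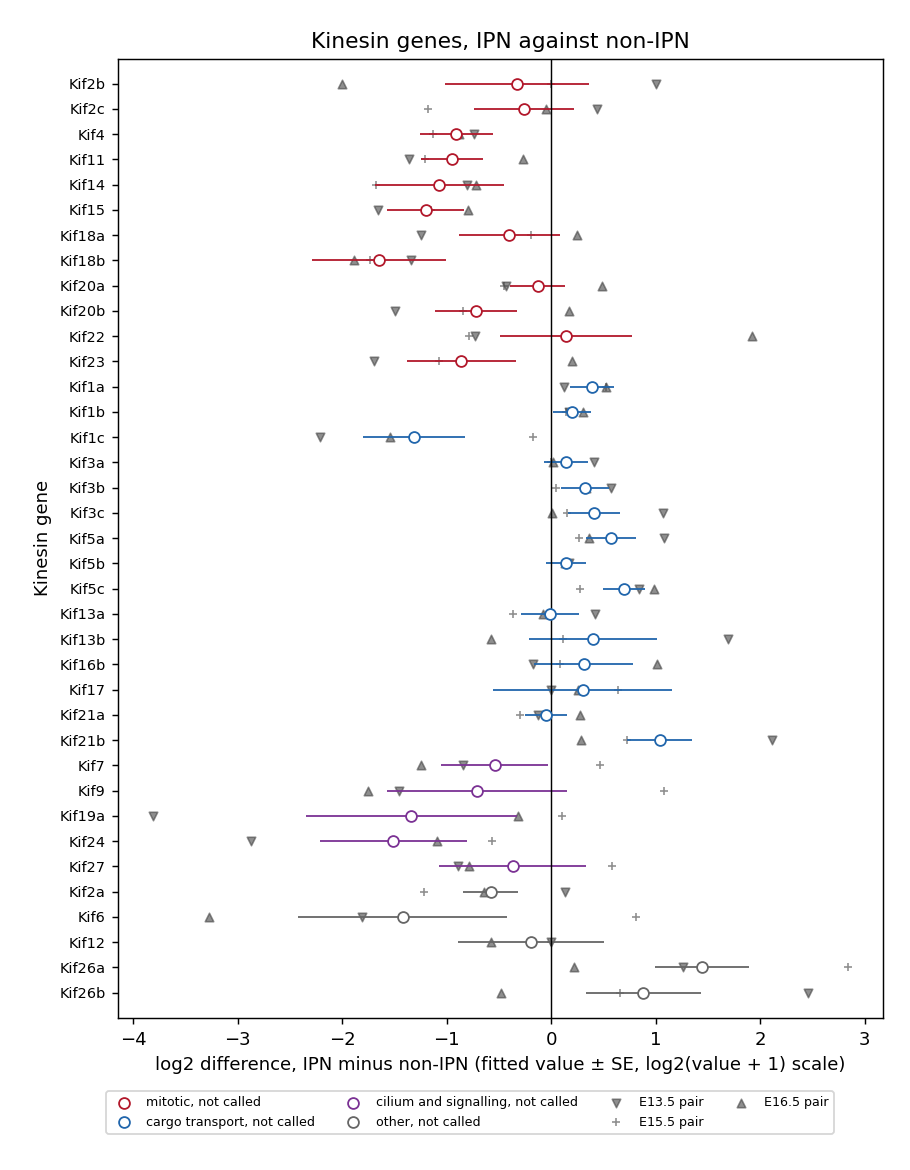
Fitted log2 difference of each kinesin, IPN minus non-IPN, on the log2(value + 1) scale (circles, bars ± SE from the limma fit of all 6 libraries), with the log2 difference of each single pair (grey symbols). Open circles mark genes that did not pass an adjusted p of 0.05, which holds for all 37; mitotic genes lie mostly left of 0 and transport genes mostly right of it.

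Kinesins of cilia and of their signalling were low throughout. Kif7, a regulator of Hedgehog signalling in the primary cilium, was at 6.53, 12.18 and 3.69 CPM in IPN, against 13.01, 9.12 and 10.33 in non-IPN. Kif24, which restrains cilium assembly at centrioles, was at 0.97, 2.61 and 2.53 CPM in IPN, against 8.30, 4.05 and 6.36 in non-IPN. Kif24 was the member of this group that was lower in IPN at all 3 ages, with a fitted difference of -1.51 ± 0.70 (limma, adjusted p = 0.381). Kif9, Kif19a and Kif27 stayed at or below 5.20 CPM in every library. All 5 had fitted differences below 0, with a median of -0.71, as had 10161 of the 19561 genes tested. At E15.5 the order was opposite, with a sum of 22.5 CPM in IPN against 18.2 in non-IPN. The median log2 ratio was -1.46, 0.47 and -1.09 at the 3 ages. Of the 5, 0 were called or had an unadjusted p under 0.05.

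Among the remaining members, Kif26a had the largest positive fitted difference of the family. This protein, which binds microtubules without motor activity, was at 8.27, 418.51 and 15.39 CPM in IPN, against 3.79, 60.63 and 15.34 in non-IPN. The populations were nearly equal in CPM at E16.5 and far apart at E15.5, where the log2 ratio was 2.84. The fitted difference was 1.44 ± 0.45 (limma, adjusted p = 0.154), and without the E16.5 pair it was 2.05 ± 0.45 (adjusted p = 0.0385). Without the E15.5 pair it was 0.74 ± 0.63 (adjusted p = 0.815). Kif26b, its relative, was at 34.00, 17.99 and 6.77 CPM in IPN, against 6.79, 11.80 and 10.97 in non-IPN. Its order of populations was opposite at E16.5, and the fitted difference was 0.88 ± 0.55 (adjusted p = 0.557), or 0.09 without the E13.5 pair.

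Kif2a was at 252.27, 114.50 and 459.35 CPM in IPN, against 255.58, 277.27 and 830.01 in non-IPN. The populations were nearly equal at E13.5, and IPN was lower at the 2 later ages, with a fitted difference of -0.58 ± 0.26 (limma, adjusted p = 0.358). Its exons share 19.2% of their bases with Dimt1 on the opposite strand, which lay between 24.81 and 77.22 CPM. Kif6 and Kif12 stayed at or below 2.23 CPM.

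The comparison of E16.5 with E13.5 used the ages that were both amplified from 10000 cells. The test called 6 of 37 members (16.2%), 4 lower and 2 higher, against 6.02% of all genes tested (2.26% lower and 3.76% higher). The 4 that fell, Kif15, Kif4, Kif23 and Kif18a, are all mitotic, and the 2 that rose, Kif1a and Kif5a, are both transport motors. At an unadjusted p under 0.05 there were 18 members (48.6%), against 21.6% of all genes. These 6 calls need all 6 libraries, and the calls of other genes were mostly lost with them. Without the E15.5 pair, 0 members and 0.502% of all genes were called. Without the population term, 0 members and 0% of all genes were called. In the 7 fits that left out 1 library or the E15.5 pair, the 6 members kept their direction. Scaled by column totals and fitted on log2(CPM + 1), Kif15 and Kif1a were still called (limma, adjusted p = 0.0429 and 0.0363). That fit changes the scaling and also the added 1, which weighs more in CPM than in deposited values. Kif4 (0.0515), Kif23 (0.0519), Kif5a (0.0636) and Kif18a (0.101) then missed the threshold. Of all genes, 1.24% were called in that fit. The parts of the scaling and of the added 1 were not tested apart.

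Among the mitotic members, Kif15 was at 4.45 CPM (IPN) and 9.06 CPM (non-IPN) at E16.5, against 29.47 and 103.33 at E13.5. Both libraries of E16.5 lay well below both of E13.5, and the fitted change was -3.22 ± 0.46 (limma, adjusted p = 0.0046). Kif23 had the largest fall of the family, to 2.05 and 2.07 CPM in IPN and non-IPN at E16.5, against 16.93 and 60.85 at E13.5. Its fitted change was -4.03 ± 0.64 (adjusted p = 0.0078), with -3.08 in IPN alone and -4.98 in non-IPN alone. Kif4 was at 7.11 and 15.26 CPM in IPN and non-IPN at E16.5, against 37.62 and 69.51 at E13.5, with a fitted change of -2.40 ± 0.43 (adjusted p = 0.0119). Its fall was of similar size in both populations, -2.47 in IPN and -2.33 in non-IPN. Kif4 shares 15.1% of its exon bases with Pdzd11 on the opposite strand, which was at 35.43 and 36.56 CPM at E16.5, against 50.87 and 40.83 at E13.5.

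Kif18a was at 6.02 and 5.88 CPM in IPN and non-IPN at E16.5, against 17.90 and 47.27 at E13.5, and its fitted change was -2.39 ± 0.58 (limma, adjusted p = 0.0399). Kif11 and Kif20a, the mitotic kinesins with the highest CPM per kilobase at E16.5, did not pass. Kif11 was at 33.65 CPM (IPN) and 47.05 CPM (non-IPN) at E16.5, against 45.24 and 128.86 at E13.5, and the groups overlapped on this scale (fitted change -1.06 ± 0.36, adjusted p = 0.121). Kif20a was at 120.11 and 99.02 CPM at E16.5, against 156.41 and 232.91 at E13.5, with a fitted change of -0.92 ± 0.31 (adjusted p = 0.115). In all, 11 of the 12 mitotic members had a fitted change below 0, with a median of -1.93, against 0.00 for all genes. The exception was Kif2b, near 0 in every library. The median change of the 12 was -1.89 in IPN alone and -2.44 in non-IPN alone.

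Among the transport motors, Kif1a was at 143.98 CPM (IPN) and 116.74 CPM (non-IPN) at E16.5, against 32.19 and 32.68 at E13.5. The 2 groups were far apart and each was tight, and the fitted change was 1.88 ± 0.26 (limma, adjusted p = 0.0044). Kif5a was at 100.20 and 90.52 CPM at E16.5, against 45.18 and 23.53 at E13.5, with a fitted change of 1.43 ± 0.29 (adjusted p = 0.0204). Of the other conventional kinesin chains, Kif5c changed by 0.43 ± 0.25 (adjusted p = 0.349) and Kif5b, the form found in most tissues, by 0.28 ± 0.24 (adjusted p = 0.539). Of the kinesin-II subunits, Kif3c changed by 1.09 ± 0.30 (adjusted p = 0.0625), Kif3b by 0.83 ± 0.29 (adjusted p = 0.122) and Kif3a by 0.73 ± 0.26 (adjusted p = 0.124). All 3 subunits were higher in both E16.5 libraries than in both E13.5 libraries, and none passed the test.

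The change of Kif21b with age was -0.15 in IPN alone and 1.68 in non-IPN alone, on the log2 scale. In IPN its level was 216.13 CPM at E16.5 against 226.87 at E13.5, and in non-IPN it was 205.99 against 57.99. The fitted change over both was 0.76 ± 0.38 (limma, adjusted p = 0.278). Kif13b had the largest positive fitted change, 2.19 ± 0.74 (adjusted p = 0.116), from levels at or below 7.07 CPM in the 4 libraries compared. Kif1c changed by -0.51 ± 0.59 (adjusted p = 0.684). Over the 15 transport members the median change was 0.45, with 11 above 0. Among the rest, Kif2a changed by 1.16 ± 0.31 (adjusted p = 0.0588), Kif26a by 1.33 ± 0.56 (adjusted p = 0.199) and Kif26b by -0.93 ± 0.67 (adjusted p = 0.470).

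Both E16.5 libraries lay below both E13.5 libraries on deposited values for 13 of 37 members (35.1%), of which 11 were mitotic, against 18.1% of all genes tested. The others were Kif13a and Kif16b. On CPM values Kif11 left this count, which was then 12 (32.4%, against 16.1% of all genes). Both E16.5 libraries lay above both E13.5 libraries for another 13 members (35.1%), 9 of them transport motors, against 20.7% of all genes, and on CPM values for the same number, against 24.7%.

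**Figure D3:**
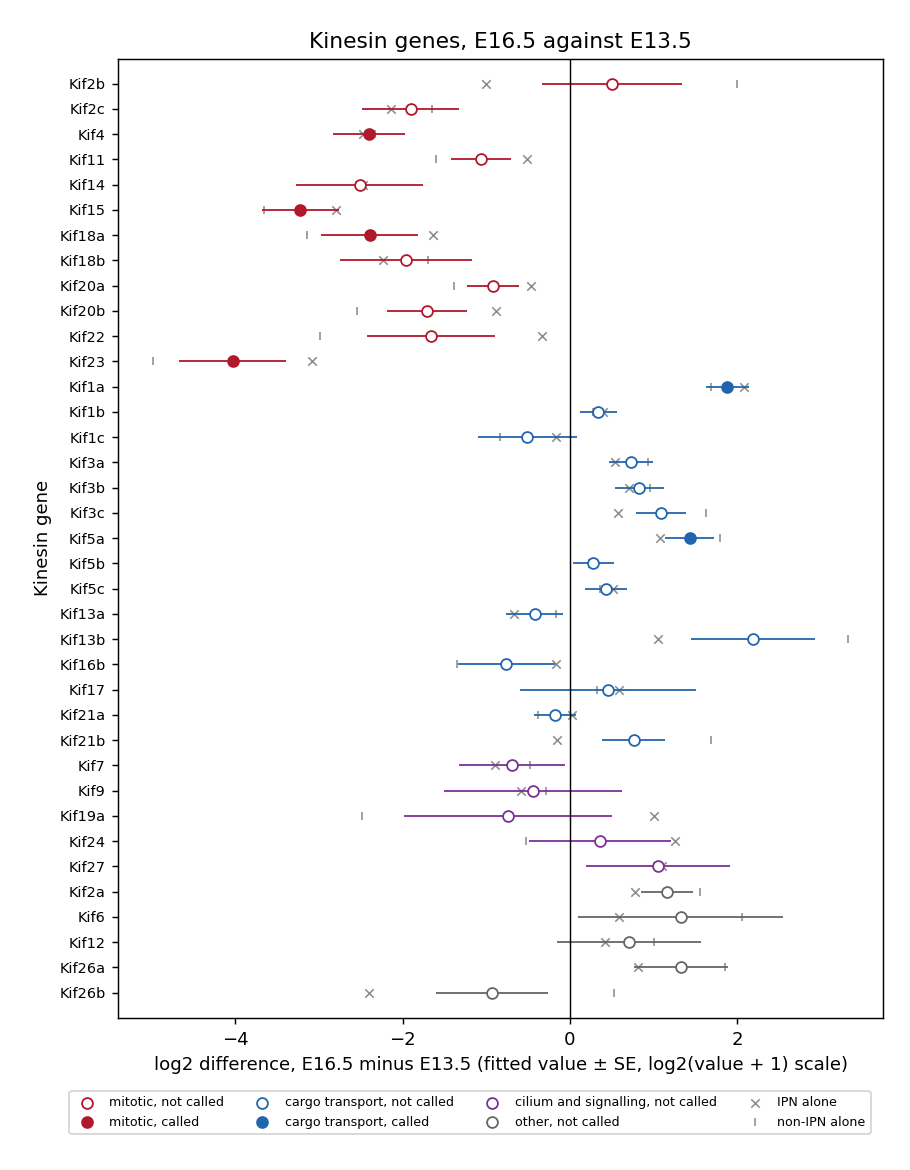
Fitted log2 change of each kinesin, E16.5 minus E13.5, on the log2(value + 1) scale (circles, bars ± SE from the limma fit), with the change within IPN alone and non-IPN alone (grey symbols). Filled circles mark the 6 genes that passed an adjusted p of 0.05: Kif4, Kif15, Kif18a and Kif23 on the left and Kif1a and Kif5a on the right.

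Members whose E15.5 libraries stood apart were about as frequent as among all genes, and the confounding with amplification named above applies. Both E15.5 libraries were above the 4 amplified ones for 11 of 37 members (29.7%), against 27.6% of all genes tested, a share close to that of all genes. These were 10 transport motors and Kif26a. Both were below for 6 members (16.2%), against 15.5% of all genes, again a close share. These were Kif11, Kif18a, Kif20a, Kif21a, Kif5b and Kif12. Transport motors thus stood in both counts. The lower of the 2 E15.5 values was 536.94 CPM for Kif1a, 451.46 for Kif3c, 412.42 for Kif5a and 969.84 for Kif21b, against at most 143.98, 190.65, 100.20 and 226.87 in the amplified libraries. Kif21a and Kif5b were at most 264.00 and 209.61 there, against at least 408.36 and 266.80 in the amplified libraries.

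**Figure D4:**
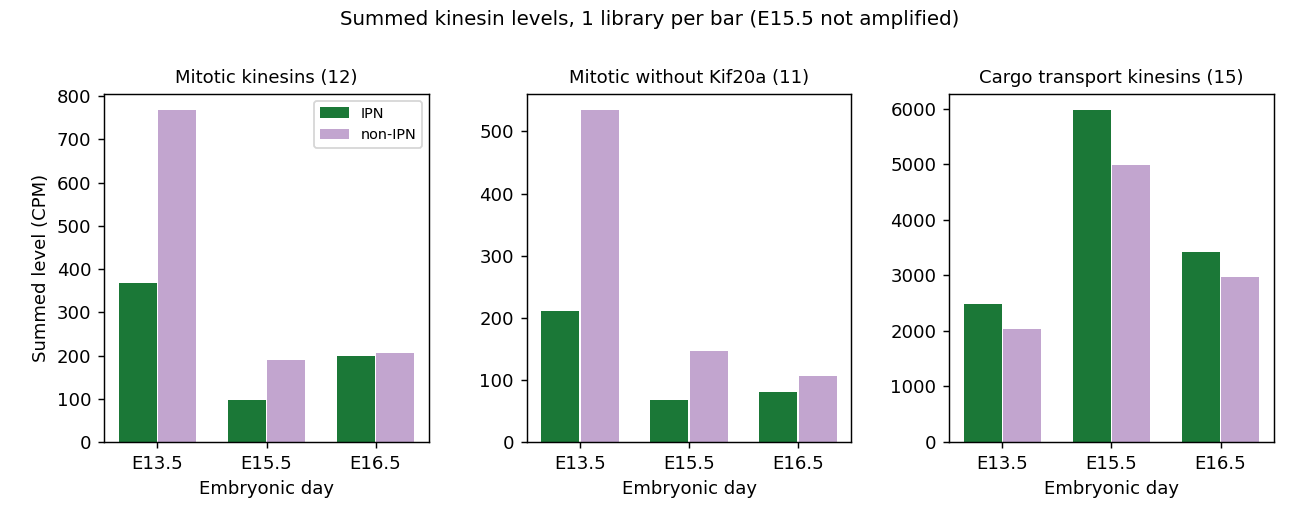
Summed level, in CPM, of the mitotic kinesins, of the mitotic kinesins without Kif20a, and of the transport kinesins (panels), in IPN (green) and non-IPN (purple) at each age, 1 library per bar. The mitotic sum of non-IPN at E13.5, 767.2, is the highest of its panel, and the transport sums are highest at E15.5, with 5971.0 in IPN and 4977.4 in non-IPN.

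Whether the population difference moved with embryonic day was tested by an interaction term per day. It called 0 of 37 members, against 1.3% of all genes tested. An unadjusted p under 0.05 was reached by 4 members (10.8%), against 16.7% of all genes. The lowest adjusted p values belonged to Kif21b, with -0.62 ± 0.16 log2 units per day (limma, adjusted p = 0.061), and Kif26b, with -0.97 ± 0.26 (adjusted p = 0.0823). In both, the excess in IPN was largest at E13.5, with log2 ratios of 2.11, 0.73 and 0.29 for Kif21b and 2.46, 0.66 and -0.48 for Kif26b at the 3 ages. Scaled by column totals, Kif21b had an adjusted p of 0.00558 and Kif26b of 0.0381 (limma). By median-of-ratios they had 0.00106 and 0.0179. Both were thus called under either scaling, where 4.63% and 7.96% of all genes were called. Neither was called with 10 added to each value (adjusted p = 0.167 and 0.175) or among genes with a mean of at least 10 CPM (0.0752 and 0.085). Limma without its trend and robust options called neither (0.406 and 0.401). Of all genes, 0.046%, 1.44% and 0% were called in these fits. The median of the mitotic kinesins was 0.27 per day and that of the transport kinesins -0.02, against 0.03 for all genes.

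Calls of the partner, dynein and marker genes described next came from the main fits alone. Unlike those of the kinesins, they were not checked one by one with libraries left out or under the other alternatives. Most genes of proteins that work with the mitotic kinesins fell with age. The 17 such genes, including spindle and cytokinesis factors and the kinesins Kifc1 and Cenpe, had a median change of -2.69. Between E13.5 and E16.5, 13 of them were called lower (76.5%, against 2.26% of all genes) and 0 higher. They included Nusap1, a spindle microtubule bundler (-3.27 ± 0.41, limma adjusted p = 0.00297), and Bub1, a checkpoint kinase (-4.02 ± 0.56, adjusted p = 0.00442). Birc5 (-3.75 ± 0.54, adjusted p = 0.00505) and Aurkb (-3.08 ± 0.48, adjusted p = 0.00723) fell as well, and both belong to the chromosomal passenger complex, which Kif20a carries to the central spindle. Between the populations all 17 had a difference below 0, with a median of -0.83, and 0 were called, with 4 at an unadjusted p under 0.05 (23.5%, against 13.6% of all genes). Kifc1 was between 0.26 and 16.36 CPM and has a near-identical copy in the mouse genome, so its value is uncertain.

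Of 21 partners of the transport motors, which include light chains and cargo adaptors, 1 was called higher in IPN and 0 lower (4.8%, near the 3.39% of all genes called). It was Trak1, which links kinesin-1 to mitochondria, at 189.38, 323.56 and 234.88 CPM in IPN, against 95.68, 144.23 and 187.79 in non-IPN (0.96 ± 0.22, limma adjusted p = 0.0421). With age 1 rose and 0 fell (4.8%, against 6.02% of all genes): Kifc3, a minus-end directed kinesin, was at 8.07 and 23.13 CPM in IPN and non-IPN at E16.5, against 0.65 and 1.72 at E13.5 (3.49 ± 0.64, adjusted p = 0.013). The subunit that joins Kif3 motors to cargo, Kifap3, was at 362.98, 262.19 and 627.13 CPM in IPN, against 302.20, 304.48 and 641.58 in non-IPN.

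Dynein moves cargo in the opposite direction to most kinesins. Of 16 dynein and dynactin genes, 2 were called higher in IPN and 0 lower (12.5%, against 3.39% of all genes called). Dync1i1, an intermediate chain found mainly in neurons, was at 15.25, 137.41 and 173.59 CPM in IPN, against 3.15, 19.65 and 64.61 in non-IPN (2.30 ± 0.31, limma adjusted p = 0.0028). Dynll1, a light chain shared with other complexes, was at 1328.68, 303.94 and 493.01 CPM in IPN, against 737.34, 165.80 and 304.70 in non-IPN (0.94 ± 0.19, adjusted p = 0.019). With age Dync1i1 (3.80 ± 0.38, adjusted p = 0.00111) and the motor heavy chain Dync1h1 (1.33 ± 0.24, adjusted p = 0.0119) rose, and Dynll1 fell (-1.47 ± 0.23, adjusted p = 0.00703), which makes 3 of 16 called (18.8%, against 6.02% of all genes).

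Markers of cycling cells moved with the mitotic kinesins. The 14 cycling markers summed to 1482.8, 451.2 and 659.5 CPM in IPN across the 3 ages, against 4512.3, 767.9 and 833.3 in non-IPN. Of them 3 were called lower in IPN and 11 fell between E13.5 and E16.5, and none was at 0 in any library. The 10 radial glia markers summed to 1248.0, 378.6 and 551.0 CPM in IPN, against 4325.5, 634.1 and 1066.9 in non-IPN, with 1 called lower in IPN, 2 fallen with age and none at 0. Of all genes, 2.41% were called lower in IPN and 2.26% fell with age. Projection neuron markers summed to 2683.1, 4450.0 and 4836.6 CPM in IPN, against 351.5, 381.5 and 2384.7 in non-IPN, and the pair was closest at E16.5. Of these 7 markers, 5 were called higher in IPN, against 0.982% of all genes. The part of dividing cells, of progenitors and of the mix of neuron types in the kinesin differences was not tested.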

How the data were processed

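Whole numbers per gene symbol were deposited for 6 libraries. They were taken as a signal that the authors had scaled before they deposited it, and not as raw counts, because the upper quartile over genes was 1501 to 1501.5 in the E15.5 files and 438 to 444 in the others. The submitters' processing notes name TopHat 1.2.0, CASAVA 1.9, edgeR and SAMtools 0.1.18, and build mm9. The counter and the scaling were not given in these sources. The library kit is named in the labels without a statement on strand.

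Files were joined by symbol. Of 20373 rows, those of 3 symbols listed more than once were dropped, which left 20367 genes, and the 19561 above 0 in at least 1 library were tested. The test was limma 3.58.1 (R 4.3.3) with its trend and robust options, applied to log2(value + 1). Adjustment was by Benjamini-Hochberg over all genes tested, and the threshold was 0.05. Fold changes of low genes are understated on that scale. The first model had age and population as factors (2 residual degrees of freedom, median prior 8.3), so ages are the only replication of the population difference. The second added population by day (1 residual degree of freedom, median prior 14.5). Per the labels, the cortices dissociated at an age gave both populations, and age was therefore the pairing of libraries; no 2 libraries held the same values. Age differences take their error from how the population difference varied over the 3 ages, E15.5 included. No separate animals are named, so p-values measure the spread between these libraries. The models were also run on simulated data with independent noise drawn from the fitted spread. Such data cannot show whether the calls would recur in further libraries.

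Single-age log2 ratios use deposited values and can differ in size or sign from the CPM values. Exon length and overlaps came from GENCODE M21, by symbol, and promoter windows from RefSeq on GRCm38.p6; neither is the authors' build. The members and lists were chosen with earlier results of these data known. Values in every library are given for the 8 kinesins that define the contrast of roles, every member called, and in each role the largest change in each direction among members with a mean of at least 10 CPM; of each partner list, up to 4 called genes with the smallest adjusted p. Kifap3, Kif7 and Kif24 and the members named in counts or as extremes were added after their values were seen. Column totals, median-of-ratios scaling, a pseudocount of 10, a filter at a mean of 10 CPM, limma without its options, no replicate block and omitted libraries were tried as alternatives.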

Additional observations from a re-analysis of the deposited data

How the results depend on the processing

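Between the populations, 0 members were called under column totals, median-of-ratios scaling, a pseudocount of 10 and the filter. The same held for limma without its options and for no replicate block. When 1 age pair was left out, between 0 and 1 were called (Kif26a, without the E16.5 pair, where 3.16% of all genes were called). For E16.5 against E13.5, 6 members were called under median-of-ratios scaling, 4 with the pseudocount of 10 (without Kif18a and Kif5a) and 8 of 24 with the filter (Kif20b and Kif3c added). Only 2 (Kif15 and Kif1a) were called with column totals, 0 with limma without its options and 0 with no replicate block, where 11 and 15 members had an unadjusted p under 0.05. Leaving out libraries gave 0 calls in each of 7 fits, with 5 to 15 members at an unadjusted p under 0.05, and the 6 called members kept their direction: Kif15 had adjusted p values of 0.0528 to 0.504. For population by day, 2 members (Kif21b and Kif26b) were called with column totals and 2 with median-of-ratios scaling, and the cause was not tested. With the pseudocount of 10, the filter and limma without its options, 0 members were called. Over all 19561 genes, the population calls numbered 664, and 196 with column totals, 334 with the pseudocount, 358 with the filter and 54 to 595 with a pair left out. The age calls numbered 1178, and 242 with column totals, 452 with the pseudocount and 0 to 97 with libraries left out. With the filter the age calls numbered 1313 of 9349 genes. The population calls and the age calls both came to 0 with limma without its options and with no replicate block. The day term had 255 calls, and 906 with column totals, 1558 with median-of-ratios scaling, 9 with the pseudocount, 135 with the filter and 0 with limma without its options.

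Leaving out libraries reversed the population difference of Kif13b (-0.24 to 0.90), Kif18a (-0.72 to 0.03) and Kif20a (-0.44 to 0.03). It reversed the age change of Kif26b (-2.11 to 0.25), Kif1c (-1.19 to 0.17) and Kif21b (-0.04 to 1.56); none of these was called. Population differences that kept their sign but moved by over 1.5 times were those of Kif1c (-1.88 to -0.86), Kif21b (0.51 to 1.42), Kif23 (-1.38 to -0.44), Kif26a (0.74 to 2.05), Kif26b (0.09 to 1.56), Kif2a (-0.93 to -0.25), Kif3a (0.01 to 0.22) and Kif5a (0.32 to 0.72). The day term of Kif5c, at 0.00, was -0.01 with column totals. With median-of-ratios scaling the log2 ratio of the mitotic sum at E16.5 was 0.17, against -0.04 with column totals, and those of the transport sum were 0.41, 0.41 and 0.42 at the 3 ages, against 0.29, 0.26 and 0.20. Without Kif20a, an alternative chosen after seeing the data, the mitotic ratios were -1.35, -1.12 and -0.42. Among genes with a mean of at least 10 CPM, the median population difference was 0.09, -0.05 with column totals and 0.11 with median-of-ratios scaling, and the median age change was 0.05, 0.16 and 0.00. With 1 library per group, depth unknown, low members such as Kif2b, Kif12, Kif17 and Kif19a allow no statement on a difference.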
